A study of Mus musculus with 18 samples.

Results

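The 206 genes described here carry the serial symbols of the mouse zinc finger protein genes, the prefix Zfp followed by digits only, of 14002 genes listed in any library. They were chosen by their symbol and by their read level: 305 such symbols were listed, and the 206 that averaged 50 reads or more over the 18 libraries were kept. Zfp36, which encodes an RNA-binding protein of another finger type, was left out. Reads were counted in ribosome footprints and in cytoplasmic input RNA of the mouse macrophage line RAW264.7. The cells had received 200 µM 4-thiouridine (4sU), which cells build into new transcripts in place of uridine and which reads as C after chemical conversion. Each of 9 lysates gave 1 footprint library and 1 input library, 18 in all. Experiment 1 held lysates of 0, 20, 40, 60, 90 and 120 min of 4sU, and experiment 2 held lysates of 20, 30 and 40 min, so the unlabelled lysate belonged to experiment 1 and no second line, genotype or drug was compared.

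Most proteins of this class are built from C2H2 zinc fingers, short modules in which a pair of cysteines and a pair of histidines hold a zinc ion. Fingers in a row read bases of DNA, and some bind RNA or protein instead. Many members begin with a KRAB box, which recruits the corepressor Trim28 and the histone methyltransferase Setdb1 and is known for the silencing of retroelements. KRAB members lie in clusters of similar genes, and messages of transcription factors are known for short lives.

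The coding stretches of single fingers show the cysteine and histidine codons that the members share. They were read from the longest GENCODE M21 coding sequence of each gene (GRCm38, the build called mm10), 5′ to 3′ on the gene's own strand. Capitals mark the codons of the pair of cysteines and the pair of histidines, and the stretch is the first match to the finger pattern of 2 to 4 residues between cysteines, 12 between cysteine and histidine and 3 to 5 between histidines. Zfp251 is shown for its low footprint to input ratio, and its stretch lies at chr15:76854220-76854282 on the minus strand. Zfp39 is shown for its high converted share (chr11:58890975-58891037, minus strand), and Zfp326 for its high footprint to input ratio (chr5:105905928-105905996, plus strand). Zfp106 had the lowest labelling relative to the median gene among the 170 members tested for it. Zfp706 had the highest input level per kilobase. The stretches of Zfp106 and Zfp706 cross exon borders on chromosomes 2 and 15.
Zfp251: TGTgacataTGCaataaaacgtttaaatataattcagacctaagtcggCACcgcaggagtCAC
Zfp39: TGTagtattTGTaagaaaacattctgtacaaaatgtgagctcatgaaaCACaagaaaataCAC
Zfp106: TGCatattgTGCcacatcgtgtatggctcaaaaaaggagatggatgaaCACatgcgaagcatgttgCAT
Zfp326: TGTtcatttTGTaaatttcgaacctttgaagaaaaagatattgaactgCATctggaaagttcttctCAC
Zfp706: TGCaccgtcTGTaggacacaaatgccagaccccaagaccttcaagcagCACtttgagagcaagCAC
The 63 bases of Zfp251 held 15 T and the 63 bases of Zfp39 held 16 T, the positions at which 4sU can be read. The 69 bases held 17 T in Zfp106 and 25 T in Zfp326, and the 66 bases of Zfp706 held 10 T. The core of the KRAB A box is shown for a pair of members with known targets. Capitals there mark the codons of the fixed residues of the pattern searched, phenylalanine, aspartate, phenylalanine, glutamate and tryptophan. The stretches lie at chr9:22235032-22235070 in Zfp809 and chr7:30015075-30015113 in Zfp568, both on the plus strand.
Zfp809: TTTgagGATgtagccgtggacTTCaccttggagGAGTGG
Zfp568: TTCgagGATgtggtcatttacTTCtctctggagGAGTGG

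A coding sequence was found for 205 of the 206 members, all but Zfp607. The number of fingers ranged from 0 to 36 with a median of 10, and 113 members had 10 or more, 61 had 5 to 9, 28 had 1 to 4 and 3 had none that matched (Zfp330, Zfp703 and Zfp839). The KRAB core was found in 81 of 205. Members lay on 20 chromosomes, with 52 on chromosome 7 and 30 on chromosome 17.

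In experiment 1 the footprint libraries had 11771175 to 23327760 reads and the input libraries 6230562 to 7933796. In experiment 2 the footprint libraries had 29065324 to 87536081 reads and the input libraries 26359243 to 48139330. All 10 macrophage markers examined, Cd68, Adgre1 and Csf1r among them, had a median of at least 1 CPM (reads of a gene scaled to a common library size) in input and summed to 5961 to 8279 CPM per library. Of 19 markers of T cells, B cells, fibroblasts, epithelium and erythroid cells, 5 were listed and 0 reached a median of 1 CPM, and together they summed to 0.138 to 1.31 CPM. Whether each lysate came from its own culture is not in the labels, and p-values therefore describe the spread among these samples alone, which may be technical. Input RNA cannot tell fewer molecules per cell from fewer cells that express a gene.

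Members were low-level messages. Since the level chose them, it is given as a description. Together they took 0.189% to 0.287% of footprint reads and 0.361% to 0.562% of input reads. The median member had 4.93 CPM in footprints and 10.3 CPM in input (medians over 9 libraries each), and the median of mean reads was 183 per library. Only 16 members averaged at least 1000 reads, and 111 averaged under 200, so the depth behind a single member is modest. Per kilobase of coding sequence, the input level ran from 0.528 CPM for Zfp703 to 204 CPM for Zfp706, with a median of 5.51 CPM and quartiles of 3.14 and 11.8 CPM. Zfp706 encodes a protein of 76 residues linked to the exit of mouse embryonic stem cells from self-renewal. After it came Zfp207, a partner of the mitotic checkpoint protein Bub3, with 145 CPM per kilobase, and Zfp91, a ubiquitin ligase gene, with 138 CPM per kilobase. Zfp106, whose RNA-binding product is needed by mouse motor neurons, had the most input reads and 68.5 CPM per kilobase. Nearly all of the 28-base words of the Zfp706 coding sequence (99%) recur in transcripts of other genes, most in the predicted gene Gm10193, so its reads cannot be assigned with certainty. Just inside the threshold were Zfp420, Zfp758 and Zfp759 with means of 50.1, 50.5 and 51.6 reads, and just outside it were Zfp3, Zfp808 and Zfp949 with 48.7, 46.5 and 45.8 reads. Their log2 footprint to input ratios were -2.77, -1.14 and -1.21 inside and -1.65, -1.04 and -1.62 outside.

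The first question was how densely ribosomes covered these messages, read as the ratio of footprint CPM to input CPM of a gene relative to all other genes. Footprints were lower than input for most members. The edgeR quasi-likelihood test with Benjamini-Hochberg adjustment over all genes called 175 of 206 members lower and 13 higher at an adjusted p under 0.05, where 40.4% of the 10110 genes tested were called lower and 35.8% higher. The members' share called lower was 85.0%, and that called higher was 6.31%. The median log2 ratio was -1.04, which is 2.05-fold lower, against -0.04 over all genes tested. Among the other 9187 genes tested with the same read minimum, the median was 0.0008 and 38.9% were called lower. A called ratio at least 2-fold lower was found for 108 members and one at least 4-fold lower for 16. Over the 10110 genes tested these counts were 1731 and 423. Called or not, a ratio at least 2-fold lower was found for 52.4% of the members and 15.2% of the other genes with the same read minimum.

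This held in each lysate taken alone. The members' median log2 ratio of footprint to input ran from -1.13 to -0.84 over the 9 lysates (-0.99 ± 0.09, SD, n = 9), against -0.06 to 0.04 for the median gene. In a single lysate 174 to 186 of the 206 members had a lower CPM in footprints. In 151 members footprints were lower in all 9 lysates, and in 10 they were higher in all 9. For 99 members every footprint library lay under every input library, and for 5 every footprint library lay above. These counts were not made over all genes, of which 40.4% were called lower and 35.8% higher. How far the members stand out in them is therefore not known. The 99 numbered Zfp symbols under the read minimum, which averaged 13.3 reads at the median, were summed: they gave 31.2 to 63.9 CPM in footprints and 58.6 to 118 CPM in input. Their summed log2 ratio was below 0 in 9 of 9 lysates, between -1.28 and -0.87.

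**Figure D1:**
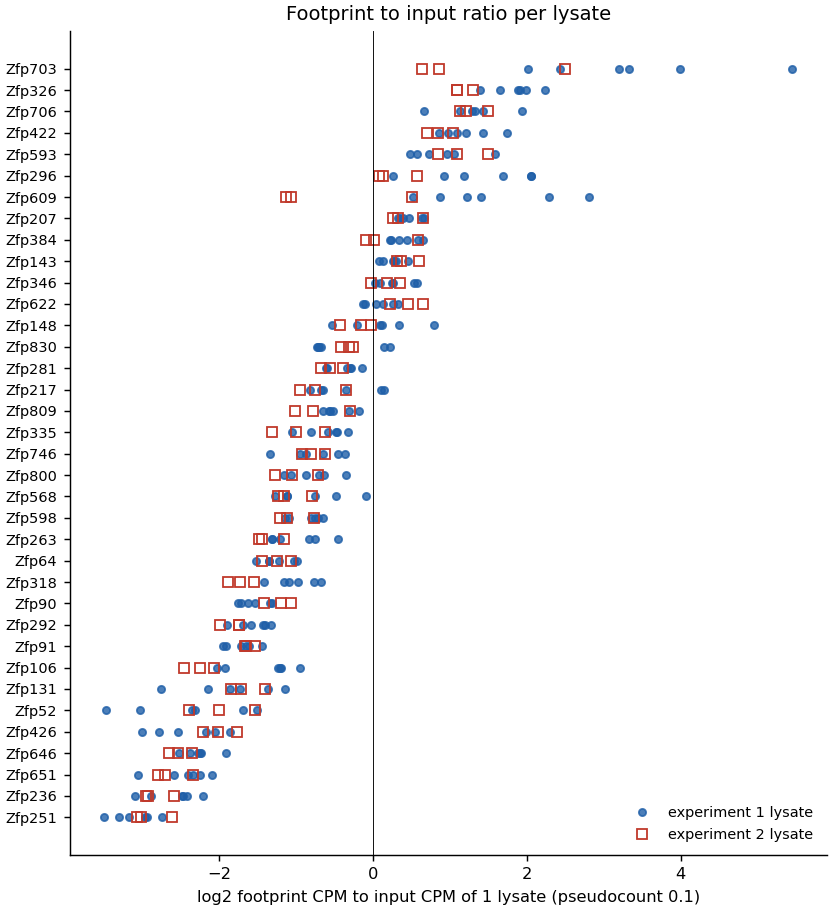
Log2 ratio of footprint CPM to input CPM in each lysate (x axis) for named members (y axis, in order of the fitted ratio). Filled circles are the 6 lysates of experiment 1 and open squares the 3 of experiment 2: Zfp251 at the bottom lay between -3.49 and -2.62, Zfp326 near the top between 1.09 and 2.23, and Zfp609 had lysates on both sides of 0. The rightmost point of Zfp703 is the 120 min lysate without an input read, so the pseudocount of 0.1 CPM sets its place.

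The 6 lowest ratios among members with a mean of at least 100 reads belonged to Zfp251, Zfp236, Zfp651, Zfp646, Zfp426 and Zfp52, with 7 to 30 fingers. Zfp251, with 11 fingers, had 1.00 to 2.69 CPM in footprints (median 1.99) and 12.3 to 21.6 CPM in input (median 16.7). The groups did not overlap, and its log2 ratio was -3.11 (SE 0.12, adjusted p = 6.72e-12), or 8.61-fold lower. Zfp236, with 30 fingers, had 4.61 to 10.2 CPM in footprints (median 8.75) and 40.2 to 69.4 CPM in input (median 53.0). Its log2 ratio was -2.72 (SE 0.10, adjusted p = 3.79e-12). Zfp646, with 27 fingers, had 10.3 to 14.4 CPM in footprints (median 12.0) and 44.7 to 75 CPM in input (median 61.6), a log2 ratio of -2.39. It overlaps Prss53 and Zfp668 in the annotation, and no source used here states whether counting used strand. Zfp651, Zfp426 and Zfp52 stood at -2.58, -2.26 and -2.21, each with footprint and input ranges apart. Below the minimum for naming, Zfp810 had the lowest ratio of all members, -3.66, from a mean of 59.8 reads. Zfp329 stood at -3.12 from 95.0 reads.

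The 13 members called higher were 1 of the 3 without a finger, 6 of 28 with 1 to 4, 5 of 61 with 5 to 9 and 1 of 113 with 10 or more. Zfp703, a corepressor without a matching finger that is known from human luminal breast cancer, had 4.27 to 7.88 CPM in footprints (median 5.92) and 0 to 3.81 CPM in input (median 0.940). Its log2 ratio was 2.00 (SE 0.36, adjusted p = 0.000113). It rests on few input reads, 0 to 8 per library in experiment 1 and 40 to 186 in experiment 2, where the single lysates had log2 ratios of 0.86, 0.64 and 2.50. Zfp326, whose single-finger product couples transcript elongation to splicing in human cells, had 63.4 to 100.1 CPM in footprints (median 81.6) and 18.1 to 31.9 CPM in input (median 26.5). Every footprint library lay above every input library, with a log2 ratio of 1.56 (SE 0.12, adjusted p = 8.59e-09). Zfp706 had 91.5 to 149 CPM in footprints (median 127) and 38.6 to 59.8 CPM in input (median 46.6), a log2 ratio of 1.27, with the limit on its reads given above. Zfp422 and Zfp593 had log2 ratios of 1.05 and 0.96 with ranges apart, and 48.7% of the 28-base words of Zfp422 recur elsewhere, most in its pseudogene Zfp422-ps. Zfp593, whose yeast relative serves the export of the large ribosomal subunit, overlaps E130218I03Rik in the annotation. Zfp296, a factor of mouse embryonic stem cells, had 6.18 to 13.8 CPM in footprints and 2.52 to 10.6 CPM in input. Its ranges overlapped, its log2 ratio was 0.79 (adjusted p = 0.005), and its input ran from 2.52 to 5.14 CPM in experiment 1 against 7.66 to 10.6 CPM in experiment 2. It overlaps Gemin7.

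Members that act on ribosomes or on RNA did not share 1 direction. Zfp598, the ubiquitin ligase that marks collided ribosomes, had 19.4 to 30.3 CPM in footprints (median 21.6) and 32.5 to 49.8 CPM in input (median 44.1), a log2 ratio of -0.95 (SE 0.08, adjusted p = 3.74e-08). Zfp622, whose yeast relative Rei1 finishes the large subunit in the cytoplasm, was at 0.18 (SE 0.08, adjusted p = 0.0513), past no threshold. Zfp207 was higher in footprints at 0.43 (adjusted p = 0.0012). Zfp830, a spliceosome-associated protein, was lower at -0.42 (adjusted p = 0.00373). Zfp106 had 102 to 153 CPM in footprints (median 139) and 261 to 691 CPM in input (median 388), with a log2 ratio of -1.77 (SE 0.17). Its input was 261 to 571 CPM in experiment 1 and 517 to 691 CPM in experiment 2, while its footprints spanned 102 to 153 CPM and 123 to 139 CPM. Zfp346, a binder of double-stranded RNA, was at 0.20 (adjusted p = 0.067), and it overlaps the predicted gene Gm17617.

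Of the 27 members listed for known roles, those above included, 17 were called lower in footprints, 6 higher and 4 neither. Zfp91, which in human cells is degraded by cereblon under thalidomide analogues, had 66.0 to 81.4 CPM in footprints (median 69.8) and 203 to 268 CPM in input (median 236), a log2 ratio of -1.71 (SE 0.08, adjusted p = 6.5e-11). It overlaps Cntf in the annotation. The retroviral silencer Zfp809 was at -0.58 and Zfp568, which represses a placental promoter of Igf2, at -0.95, both called lower. Zfp318, needed for surface IgD of mouse B cells, was at -1.35, Zfp64 at -1.29, Zfp131 at -1.78, Zfp263 at -1.13, Zfp292 at -1.68, Zfp90 at -1.49, Zfp800 at -0.90, Zfp335 at -0.79, Zfp217 at -0.54 and Zfp281 at -0.46, all called lower. Zfp746, or PARIS, a repressor of Ppargc1a and substrate of parkin, was at -0.82 and called lower. Zfp143, an activator of many promoters and of small nuclear RNA genes, was called higher at 0.28 (adjusted p = 0.00349), and so was Zfp384 at 0.29 (adjusted p = 0.00681), with 48.1% of its words found elsewhere. Zfp148 at -0.05 (adjusted p = 0.71) passed no threshold. Neither did Zfp609 at 0.50 (SE 0.36, adjusted p = 0.22), whose ratio was above 0 in 6 of 6 lysates of experiment 1 and in 1 of 3 of experiment 2.

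The number of fingers went with the ratio. The median log2 ratio was -1.23 for the 113 members with 10 or more fingers, -0.96 for the 61 with 5 to 9, -0.17 for the 28 with 1 to 4 and 0.18 for the 3 with none. Called lower were 107, 53, 13 and 1 of them. Spearman's rho between fingers and log2 ratio was -0.43 over 205 members. These points share libraries, and many share sequence. The T share of the coding sequence had a rho of 0.44 with the number of fingers and of -0.38 with the ratio. Coding length had a rho of -0.24 with the ratio. Its median was 1959 bases for 10 or more fingers, 1728 for 5 to 9 and 1333.5 for 1 to 4. The parts of T share and of coding length in the result were not tested. Of the 81 members with the KRAB core, 79 were called lower and 0 higher, with a median of -1.19, against 95 lower and 13 higher of 124 without it, with a median of -0.85. With a wider core pattern, chosen after seeing the data, it was 89 of 91 lower with the core and 85 of 114 without. Within the members of 10 or more fingers the medians were -1.29 for 68 with the wider core and -1.05 for 45 without. Within those of 5 to 9 fingers the order was the other way, with -0.75 for 22 with the wider core and -1.07 for 39 without. The 49 members with at least 10% of their 28-base words in another gene had a median of -1.19, against -1.01 for the other 156. Without an overlapping coding gene the median was -1.05 (175 members), and with one it was -0.87 (30 members).

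**Figure D2:**
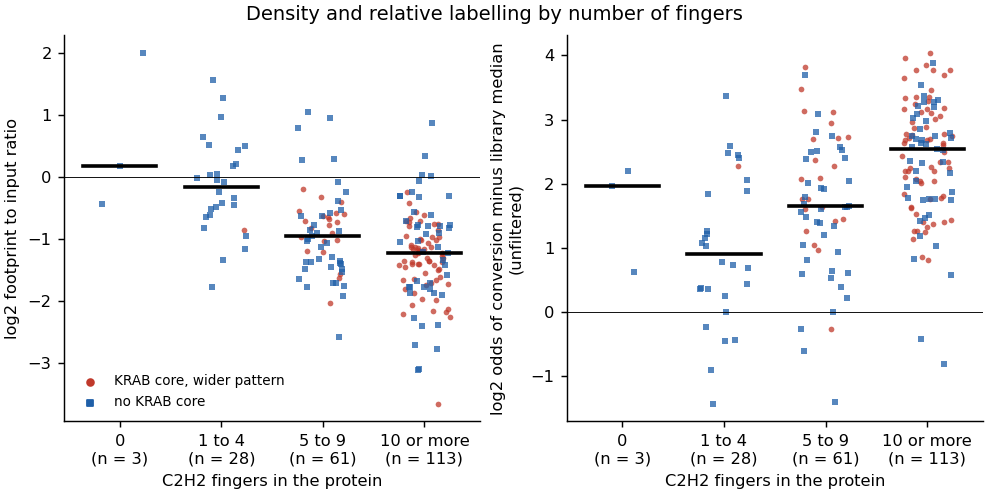
Log2 footprint to input ratio (left) and unfiltered relative labelling in log2 units (right) of 205 members by number of C2H2 fingers. Points are genes, circles with the wider KRAB core and squares without, and bars are medians: the left bars stand at 0.18, -0.17, -0.96 and -1.23 from no finger to 10 or more.

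The second question was how fast these messages took up label. Reads with 1 or more T-to-C conversions were taken as converted. Pooled over the members, the converted share of input reads in experiment 1 was 0.616% at 0 min, 1.85% at 20 min, 7.53% at 40 min, 14.4% at 60 min, 18.5% at 90 min and 31.5% at 120 min. The whole libraries had 0.289%, 0.866%, 2.16%, 3.91%, 5.2% and 8.07% at the same times. In experiment 2 the members had 1.20%, 3.92% and 5.71% at 20, 30 and 40 min, against 0.813%, 1.72% and 1.99%. The share of the members was thus above that of the library in all 9 input libraries, the unlabelled one included.

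**Figure D3:**
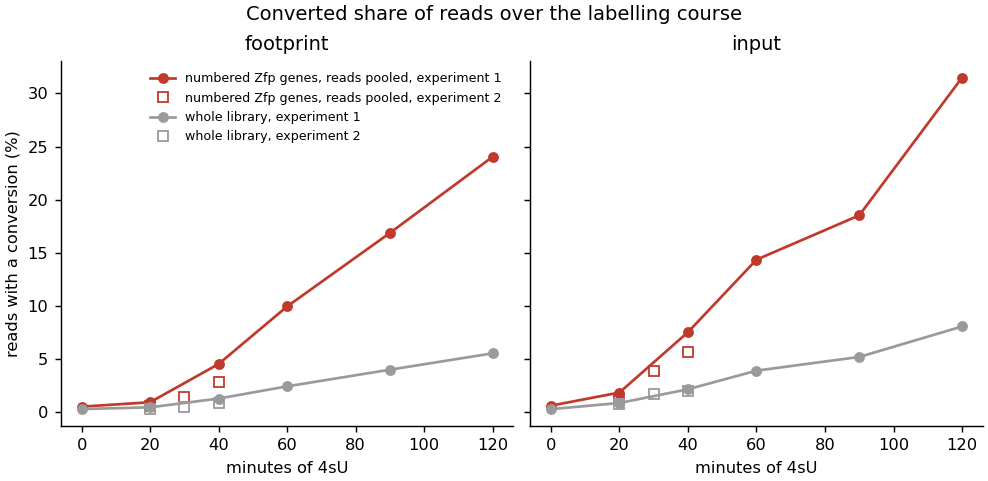
Share of reads with at least 1 conversion (y axis, percent) against minutes of 4sU (x axis), in footprints (left) and input (right), for the pooled reads of the 206 members and for the whole libraries. Lines join experiment 1 and open squares are experiment 2: at 120 min the members stood at 24.0% in footprints and 31.5% in input, against 5.54% and 8.07% for the whole libraries.

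Without label the converted reads were spread unevenly over the members. In the unlabelled lysate, footprints and input together, 558 of 100808 reads of the members were converted, 0.554% against 0.296% over all genes. Of these, 271 came from 26 members with a converted share of at least 2%, and the other members pooled at 0.304%. The 26 were picked by this same share, so the others had to pool lower. The value over all genes was not cut in this way, so 0.304% and 0.296% are not like for like. The share was 19.05% in Zfp566 (16 of 84 reads, 95% Wilson interval 12.1 to 28.7%, for counting error only). It was 6.58% in Zfp146 (48 of 729 reads) and 6.53% in Zfp68 (48 of 735 reads). Of members with at least 200 such reads, 10 of 116 (8.62%) reached 2%, against 2.63% of 8175 genes. With the 26 left out, the remaining members pooled at 29.9% at 120 min and 0.279% without label in input. The source of the unlabelled conversions was not tested.

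Relative labelling, the log2 odds of conversion minus the median gene of the same library, averaged above 0 in 194 of all 206 members without any filter, and its median was 2.08. Among the other 9190 genes with the same read minimum it was above 0 in 46.3%, with a median of -0.11. The limma test asked for at least 50 converted reads in all, which 36 members missed. Their unfiltered values were above 0 in 29 of 36, with a median of 1.30, so the 170 that passed do not stand for all members. Among the 170, limma with Benjamini-Hochberg adjustment called 160 above the library median and 3 below, where 35.2% of the 7045 genes tested were called above and 35.2% below. In single libraries 148 to 166 of the 170 lay above the median gene, and their median was 1.42 to 2.88. It rose with time, with 1.71, 2.39, 2.71, 2.85 and 2.88 at 20, 40, 60, 90 and 120 min in experiment 1. In experiment 2 it was 1.42, 1.91 and 2.29 at 20, 30 and 40 min. The limma fit held no term for time, so its SE and p-values count change with time as spread. Counted as conversions per T position, 159 were called above, with a median of 2.19 against 2.33 per read. Input reads of the members held a median of 6.37 T, against 6.54 over the genes tested. Without the 26 members with unlabelled conversion, 134 of 144 were called above, with a median of 2.15. Label uptake depends on both synthesis and decay, and no half-life was computed.

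**Figure D4:**
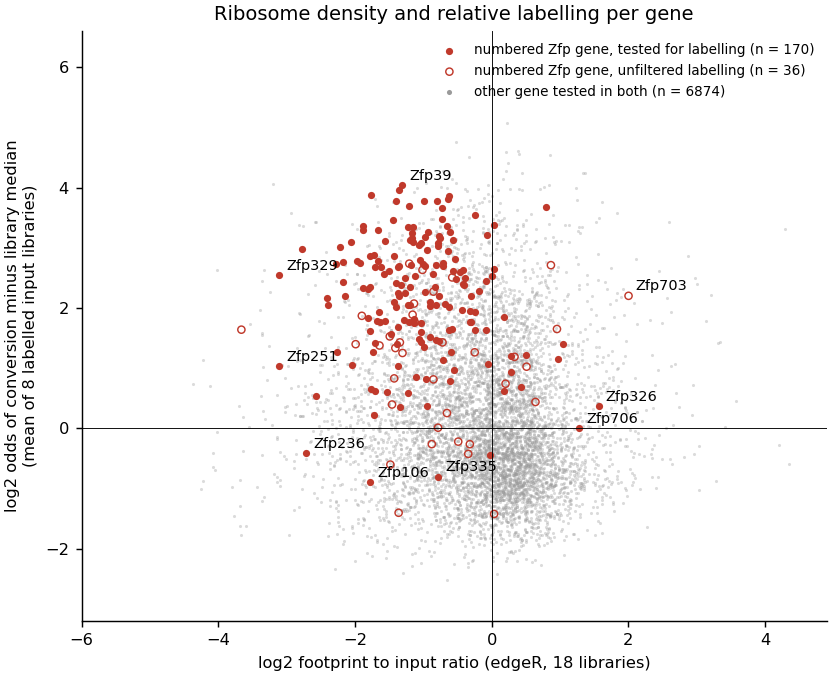
Log2 footprint to input ratio (x axis) against relative labelling in input (y axis, log2 units relative to the median gene of each library). Grey points are other genes tested in both comparisons, filled points the 170 members tested for labelling and open points the 36 others with unfiltered values; most members lie at the upper left, where 141 of the 170 were called in both.

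Both properties met in most members. Of the 170 tested in both comparisons, 141 (82.9%) were called lower in footprints and above the median in labelling, against 1181 of 7044 genes (16.8%). Spearman's rho between labelling and ratio was -0.06 over 170 members. Labelling was higher where fingers were many (rho 0.37 over 169 members, 0.29 per T position) and where reads were few (rho -0.54 over 170 members, -0.35 unfiltered over 206). At few reads, the filter on converted reads favours high values among tested members, and the pseudocount raises unfiltered ones. The unfiltered median was 2.55 for 10 or more fingers, 1.65 for 5 to 9 and 0.90 for 1 to 4. Among the tested members it was 2.64 for 97 with 10 or more, 1.78 for 52 with 5 to 9 and 1.11 for 18 with 1 to 4. Per T position these medians were 2.30, 1.86 and 1.29. The median of mean reads was 135 for 10 or more fingers, 243 for 5 to 9 and 528 for 1 to 4. The filter and the pseudocount therefore bear more on members with many fingers, and the part of read level in this order was not tested. All 70 tested members with the KRAB core were called above (median 2.66), against 89 of 99 without it (median 2.01). Per T position it was 69 of 70 with the core (median 2.28) and 89 of 99 without it (median 2.06). Unfiltered, the medians were 2.38 for all 81 with the core and 1.79 for all 124 without it. The median of mean reads was 140 with the core and 212 without it, so the filter on converted reads bears more on members with the core. Input reads held a median of 7.02 T in members with the core and 6.10 T in those without.

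The most labelled members by the rule were Zfp39, Zfp619, Zfp51, Zfp87, Zfp566 and Zfp472. All but Zfp472 were among the 26 members with a converted share of at least 2% in the unlabelled lysate. Footprints and input together, that share was 4.11% in Zfp39, 6.25% in Zfp619, 2.71% in Zfp51, 2.51% in Zfp87 and 19.05% in Zfp566. The converted share of Zfp472 input reads in experiment 1 was 0.53% at 0 min, 2.54% at 20 min, 25.8% at 40 min, 53.4% at 60 min, 65.0% at 90 min and 72.4% at 120 min. Its relative labelling was 3.77 (SE 0.31, adjusted p = 5.72e-07) and positive in 8 of 8 libraries, the lowest at 1.98. Zfp51 had 2.91% converted reads at 0 min and 53.8% at 120 min, with a relative labelling of 3.88 (SE 0.17, adjusted p = 5.73e-09). Zfp87 had 0% converted input reads at 0 min (0 of 68), where its footprints held 3.32%, and 65.7% in input at 120 min. Its relative labelling was 3.85, and it overlaps the predicted gene Gm26965. Zfp39 and Zfp619 had the highest values, 4.04 (SE 0.24) and 3.96 (SE 0.22), from means of only 76.3 and 96.3 reads per labelled input library. All 6 were above the median gene in 8 of 8 libraries. Subtracting the unlabelled input share gave 4.37 for Zfp39, 3.802 for Zfp619, 3.86 for Zfp51, 4.23 for Zfp87 and 4.05 for Zfp472. For Zfp566, the member with the highest unlabelled share, it gave 1.32, against 3.82 without subtraction. The input share subtracted came from only 21 reads in Zfp39 and in Zfp566, 24 in Zfp619 and 68 in Zfp87. Unlabelled conversion in footprints did not enter it. Zfp566 overlaps the predicted gene Gm26920, and Zfp51, Zfp87 and Zfp566 share 14.9%, 15.1% and 11.7% of their 28-base words with other genes.

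Without subtraction of the unlabelled share, only 3 members were called below the median gene. In Zfp106 the converted share of input reads in experiment 1 was 0.254% at 0 min and 5.00% at 120 min, and its relative labelling was -0.90 (SE 0.13, adjusted p = 8.11e-05), between -1.11 and -0.68 in the 8 libraries. Zfp335, which regulates neural progenitors through histone methyltransferase complexes, had 9.03% converted reads at 120 min and a relative labelling of -0.80 (SE 0.25, adjusted p = 0.0121), negative in 7 of 8 libraries. Zfp236 had 8.73% at 120 min and -0.41 (SE 0.15, adjusted p = 0.026), negative in 8 of 8. Per T position Zfp236 was not called (-0.32, adjusted p = 0.145), and with the unlabelled share subtracted it stood at -0.10. Zfp277, named here after its values were seen, was called below per T position (-0.49, adjusted p = 0.0335) but not per read (-0.44, adjusted p = 0.0625). Zfp335 overlaps Pcif1 in the annotation.

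Members with known roles spread over the range between. Zfp296 stood at 3.69, Zfp568 at 2.97, Zfp217, whose human counterpart is amplified in breast cancer, at 2.81, Zfp281 at 2.59, Zfp263 at 2.53, Zfp830 at 2.40, Zfp746 at 2.05 and Zfp800 at 2.04, all called above. So were Zfp622 at 1.85, Zfp64 at 1.80, Zfp292 at 1.78, Zfp809 at 1.64, Zfp131 at 1.61, Zfp609 at 1.22, Zfp143 at 1.21, Zfp593 at 1.15, Zfp148 at 1.08, Zfp384 at 0.94, Zfp207 at 0.69 and Zfp91 at 0.61. Past no threshold were Zfp598 at 0.38 (adjusted p = 0.362), Zfp326 at 0.36 (adjusted p = 0.107), Zfp318 at 0.36 (adjusted p = 0.267) and Zfp706 at -0.003 (adjusted p = 0.988). With the unlabelled share subtracted, the values were -0.56 for Zfp64, -0.05 for Zfp384, -0.13 for Zfp318, -0.10 for Zfp326, -1.74 for Zfp598 and 0.31 for Zfp706, each on the other side of 0. Of the 170 members tested, 8 turned sign in this way. After subtraction Zfp598 was called below the median gene (limma, adjusted p = 0.0101). The input share subtracted for it was 2.21%, from 272 reads.

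The third question was whether newly made copies were represented on ribosomes as in the cytoplasm. The odds of conversion were lower in footprints than in input for most members, as for most genes. With edgeR's design for methylation counts, 0 of 197 members tested were called higher and 63 lower, where 0.145% of 8276 genes were called higher and 59.0% lower. The share of members called lower was 32.0%, below that of all genes, and 78 members had an unadjusted p under 0.05. Depth moved with this count, with 32 of 52 called among the members with the most reads and 5 of 45 among those with the fewest, when members were split into 4 groups by mean reads. The median log2 odds ratio was -0.67, against -0.79 over all genes tested. Pooled over members, the log2 odds ratio was -0.99, -0.78, -0.60, -0.16 and -0.54 at 20, 40, 60, 90 and 120 min in experiment 1 and -1.12, -1.45 and -1.07 at 20, 30 and 40 min in experiment 2. It was -0.24 in the unlabelled lysate, against 0.05 over all reads. In experiment 1 alone 16 members were called lower and 2 higher, and in experiment 2 alone, an alternative chosen after seeing the data, 97 were called lower. Without the 30 min lysate 39 were called lower.

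Zfp938 and Zfp326 had the largest gaps between footprints and input. In Zfp938, footprints held 6.34% converted reads at 120 min and input 25.5%. At 30 min of experiment 2 footprints held 0.317% and input 4.38%, and the log2 odds ratio was -2.07 (SE 0.46, adjusted p = 6.09e-05). In Zfp326, footprints held 1.24%, 2.73% and 4.27% converted reads at 60, 90 and 120 min and input held 5.98%, 6.91% and 8.43%, a log2 odds ratio of -1.83 (SE 0.32, adjusted p = 4.3e-07). Zfp169, Zfp871, Zfp329 and Zfp266 followed at -1.63, -1.59, -1.43 and -1.42. The values of Zfp169 and Zfp329 rest on means of 88.5 and 95.0 reads per library, with 0% converted reads in several footprint libraries.

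The last question was how levels moved over the hours of labelling. From 0 to 120 min in experiment 1 the median log2 change of the members was -0.69 in footprints and -0.55 in input. The median over all genes was at 0.04 in footprints and -0.02 in input. At 60 min the members' medians stood at -0.58 in footprints and -0.32 in input. With hours of 4sU as a number, edgeR called 75 of 200 members falling and 2 rising in footprints, where 14.2% of genes fell and 7.13% rose. In input it called 38 of 198 falling and 0 rising, where 6.51% of genes fell and 0.475% rose. The median slope of the members was -0.39 log2 units per hour in footprints and -0.35 in input, against 0.01 and -0.02 over all genes. Slopes were negative in 169 of 200 members in footprints and 182 of 198 in input. Over all genes they were negative in 4738 of 9664 and 4894 of 9269. Of the 192 members tested in both, 156 had a negative slope in both, a count not made over all genes.

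These calls rest on the late lysates of experiment 1, each of which stands alone at its time. Without the 120 min lysate 4 members were called falling in footprints and 0 in input, and without the 90 min lysate 39 and 4. In input, 25 were called falling without the 20 min or without the 40 min lysate of experiment 2, and 24 without the 60 min lysate. With single lysates left out, 0 to 5 were called rising in footprints. The median slopes of the members ran from -0.44 to -0.32 in footprints and from -0.39 to -0.31 in input over the 15 fits made of each. With experiment as a replicate block the counts were 94 in footprints and 71 in input. Experiment and time overlap only at 20 and 40 min.

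**Figure D5:**
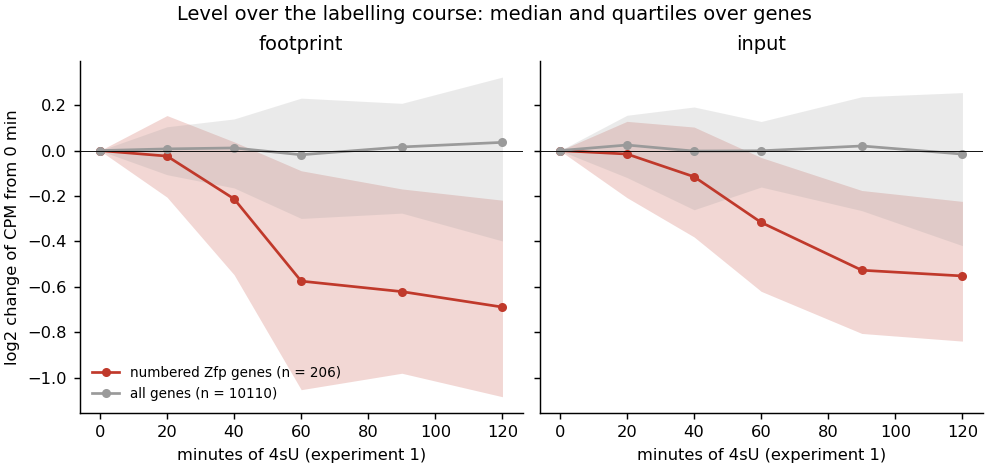
Log2 change of CPM from 0 min (y axis) against minutes of 4sU in experiment 1 (x axis), in footprints (left) and input (right). Lines are medians over the 206 members and over 10110 genes, and bands their quartiles over genes: the members' median reached -0.69 in footprints and -0.55 in input at 120 min.

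The falling members named next had the steepest called slopes among members with at least 100 reads on average. They were picked by these same slopes, so they do not show the typical fall. The median slope of the members was -0.39 in footprints and -0.35 in input. Zfp217 had 20.6 CPM in footprints at 0 min and 11.2 CPM at 120 min. In input it had 36.3, 37.1, 22.8, 21.4, 10.4 and 10.4 CPM at 0, 20, 40, 60, 90 and 120 min, a slope of -1.12 log2 units per hour (SE 0.14, adjusted p = 0.00643). Zfp746 had 22.4 CPM at 0 min and 6.07 CPM at 120 min in input, with a slope of -0.97 (adjusted p = 0.00666), and Zfp606 had 12.7 and 4.79 CPM at those times, with a slope of -0.86 (adjusted p = 0.0139). Without the 120 min lysate the slopes were -1.27 for Zfp217, -1.02 for Zfp746 and -0.996 for Zfp606, no smaller than with it, but the adjusted p was 0.113 to 0.174. In footprints, Zfp866 had 6.56 CPM at 0 min and 0.935 CPM at 120 min, with a slope of -1.23 (adjusted p = 0.00177). It overlaps Atp13a1 and Gm20422. Zfp426 had 7.98 and 1.60 CPM, a slope of -1.20 (adjusted p = 0.00116), and Zfp7 had 6.16 and 1.34 CPM, a slope of -1.19 (adjusted p = 0.00203). Without the 120 min lysate the slopes were -1.16 for Zfp866, -1.14 for Zfp426 and -1.29 for Zfp7, with an adjusted p of 0.0522 to 0.067. The members that rose in footprints were Zfp868, with 3.15 CPM at 0 min, 5.74 CPM at 120 min and a slope of 0.42 (adjusted p = 0.0363), and Zfp422, with 28.8 and 39.6 CPM and a slope of 0.25 (adjusted p = 0.0343). Without the 120 min lysate the slopes were 0.32 for Zfp868 and 0.24 for Zfp422, and neither was called. Of these members, 35.7% of the 28-base words of Zfp7 recur in other genes, 22.2% of those of Zfp866 and 20.4% of those of Zfp868. Zfp7 overlaps the predicted gene Gm49527.

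The footprint to input ratio showed no call over the course. The product of material and hours in edgeR gave 0 of 206 members rising and 0 falling, where 0.0% of genes rose and 0.0% fell. Without adjustment 22 members and 241 of 10110 genes had a p under 0.05, and DESeq2's Wald test also called 0 members in each direction. The members' slopes of the ratio ran from -0.81 to 1.23 log2 units per hour with a median of -0.03.

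Other zinc finger classes were set beside the members under the same read minimum. Of 32 Zbtb genes, which join fingers to a BTB domain, 28 were called lower in footprints and 2 higher (median log2 ratio -1.10), and 27 of 30 tested were called above the median in labelling. Of 14 Zkscan and Zscan genes, which carry a SCAN domain, 10 were called lower and 2 higher (median -0.62), and 12 of 13 were above in labelling. Of 24 cofactors with which KRAB proteins work, 5 were called lower in footprints and 10 higher, with a median of 0.11, and of 23 tested in labelling 15 were called below and 4 above, with a median of -0.60. Trim28, which KRAB boxes bind, had a log2 ratio of -0.02 (adjusted p = 0.836) and a relative labelling of -0.82 (adjusted p = 0.000434). Setdb1 stood at -0.36 in the ratio and -0.69 in labelling, both called, and Cbx5, a heterochromatin protein, at 0.89 and -0.50, both called. Chd3, a remodelling subunit, was the single cofactor with a ratio at least 2-fold lower, at -2.29. No test of these lists against the members was made.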

How the data were processed

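The values are the authors' deposited counts, raw reads per gene and library, split in columns by T positions per read (0 to 20) and T-to-C conversions (0 to 3); this meaning was inferred from the headings and values. The submitters' processing notes name Bowtie 0.12.8 and the mm10 build, and no source used here gives the counter, annotation or counted region. T per input read followed coding T content (rho 0.926 over 8305 genes) more closely than whole-transcript T content (rho 0.612). Per the labels, about 10% of each lysate was kept as input, the rest gave monosome footprints, and fragments of 25 to 35 nt were used.

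The fits were made on the whole table, with two-sided tests and Benjamini-Hochberg adjustment over all genes tested: edgeR 4.0.16 (TMM, filterByExpr) for footprint against input, slopes and ratio trend, edgeR's methylation design for conversion, and limma 3.58.1 for relative labelling, with a pseudocount of 0.5 and at least 50 reads on average and 50 converted reads in all. Ratios of single lysates used log2(CPM + 0.1). DESeq2 1.42.0 gave alternatives. Libraries held 6230562 to 87536081 reads. R 4.3.3 and Python 3.11.15 were used, and the fits were tested on simulated data.

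Input and footprints are paired by lysate through the protocol in the labels; their deviations from the material means correlated at 0.114 to 0.680, and 3 of 9 inputs correlated best with their own footprints. Fingers and KRAB cores were counted in translated GENCODE M21 coding sequences, in place of the RefSeq proteins planned. Named are the 6 highest and 6 lowest called members per comparison with at least 100 reads on average over the libraries of the fit (50 for conversion and labelling), 3 for slopes, plus members with known roles; Zfp810, Zfp146, Zfp68 and Zfp277 were named after their values were seen. Members, lists and tests were chosen with earlier results of these data known. Alternatives covered scaling, test, filters, pseudocount, experiments, blocks and single lysates.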

Additional observations from a re-analysis of the deposited data

Results flagged for a closer look

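Of 70 sets of 8 or 9 values per lysate that were examined, 2 had 1 library far from the rest, and chance flags about 1 in 20 such sets. The relative labelling of Zfp593 was -0.20 in the 120 min input of experiment 1, against 0.99 to 1.76 in the other 7 labelled input libraries. The relative labelling of Zfp91 was 0.0198 in the 20 min input of experiment 2, against 0.55 to 0.93 in the other 7. No member had ratios of opposite sign in all lysates of experiment 1 and all lysates of experiment 2.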

How the results depend on the processing

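The count of members lower in footprints was 163 to 177 under the alternatives run (175 as reported) and that of members higher 11 to 16 (13 as reported). With lysate as a replicate block it was 176 lower and 15 higher, and with experiment as a replicate block 177 and 16. Labelling above the median was called in 160 of 170 members tested, in 95 of 106 with experiment 1 alone, in 97 of 111 with experiment 2 alone and in 91 of 101 with a minimum of 200 reads; below it, 3, and 1 with experiment 1 alone. Footprint conversion was called lower in 63, and in 16 with experiment 1 alone (2 higher), 97 with experiment 2 alone and 39 to 75 with single lysates left out. Falling input was called in 38, in 71 with experiment as a replicate block, in 22 with no filter on low counts and in 0 to 42 with single lysates left out. Falling footprints were called in 75, and in 4 to 84 with single lysates left out; rising footprints in 2, in 4 with DESeq2's Wald test, 4 with the experiment block, 0 with no filter and 0 to 5 with single lysates left out. Experiment 2 alone and the members without unlabelled conversion were chosen after seeing the data. The lysate block was run only for the footprint to input ratio and for footprint conversion, where it changed no count by more than 1.5 times. The trend of the ratio over hours was not fitted with it.

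Some single values changed sign. The ratio of Zfp148 (-0.05) was 0.012 with DESeq2's Wald test, 0.011 with DESeq2 size factors, 0.061 in experiment 1 alone and -0.14 to 0.013 with single lysates left out, and that of Zfp609 (0.50) was -0.63 in experiment 2 alone. With background subtracted, labelling was -0.13 for Zfp318, -0.048 for Zfp384, -0.10 for Zfp326, -1.74 for Zfp598, -0.557 for Zfp64 and 0.308 for Zfp706. Zfp598 was then called below the median gene (limma, adjusted p = 0.0101). Labelling of Zfp598 was -0.088 in experiment 1 alone. That of Zfp706 (-0.003) was 0.62 per T position, 0.040 in experiment 1 alone, 0.081 with a minimum of 200 reads, 0.014 with a pseudocount of 2 and -0.11 to 0.10 with single lysates left out. The causes were not tested. Members averaging under 200 reads, 111 of 206, limit what single values can show.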
